A study of Mus musculus with 46 samples.

Results

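The genes described here take long-chain fatty acids into heart muscle cells and burn them in mitochondria. They are 34 genes named for their roles. Of these, 32 had at least 1 probe set that the array's annotation assigned to that gene alone, among the 12393 genes so covered on the array. These 32 genes had 56 probe sets, and all 32 passed the filter on low signal in both tissue regions. Acsl1 and Cpt1b were not analysed here, because no probe set was assigned to either of them alone.

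Hearts came from male mice of the C57BL/6J strain and the MRL/MpJ strain, 15 to 20 weeks old. The left coronary artery was tied to cause a myocardial infarction, and hearts were taken 1 or 5 days later. Day 0 hearts came from healthy mice without the operation, so changes from day 0 hold both the infarct and the surgery. From each heart a punch of infarct tissue, which the labels describe as infarct with its border, was separated from the rest of the left ventricle, called noninfarct tissue. On day 0 the infarct punch was the matching region of the healthy ventricle. Both strains are written C57 and MRL here. Each strain, day and region had 4 arrays, except C57 on day 0 with 3 in each region, for 46 arrays in 12 groups.

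The adult heart draws most of its energy from fatty acids. Lipoprotein lipase frees them from circulating fat, CD36 and binding proteins carry them into the cell, and the carnitine shuttle moves their acyl groups into the mitochondrial matrix. There each turn of beta-oxidation uses an acyl-CoA dehydrogenase, a hydratase, a second dehydrogenase and a thiolase, and the electrons pass through electron transfer flavoprotein to the respiratory chain. PPARα, encoded by Ppara, and its coactivator PGC-1α, encoded by Ppargc1a, raise the transcription of most of these genes. A fall of this programme is a known feature of the injured and failing heart.

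Values are log2 of the deposited probe set intensity, and a change is a difference of group means on that scale, so positive values mean more signal on the later day, or in the group named first. A gene is called changed when limma's test, fitted across all probe sets that passed the filter, gave a Benjamini-Hochberg adjusted p under 0.05. Errors of changes are standard errors (SE), and errors of group means are standard deviations (SD). Levels of different genes cannot be set against each other, since each probe set binds with its own strength. All 15 cardiomyocyte markers were measured above the filter in both regions, as was every one of 12 endothelial, 11 macrophage and 9 fibroblast markers, and none of 5 measured adipocyte markers was. A pair of day 5 libraries went against their labels. In a principal component analysis of the tested probe sets, component 3 parted the strains: the other 21 C57 arrays lay at -25.4 to 2.49 and the other 23 MRL arrays at 11.3 to 29.8. Noninfarct replicate 3 of day 5 with a C57 label was at 13.7, among MRL. Infarct replicate 3 of day 5 with an MRL label was at -21.2, among C57. On component 1 the first lay at 99.1, against -30.2 to 35.3 in the rest of its group and 108 to 116 in the other MRL day 5 infarct arrays. The second lay at 11, against 108 to 116 in the rest of its group and -30.2 to 35.3 in the other C57 day 5 noninfarct arrays. Each library therefore lay nearer to the group on the other's label than to the rest of its own; whether labels were exchanged was not tested, and both were kept as labelled. In C57 day 5 noninfarct replicate 3 the median change of the 32 genes was -2.09, against a group maximum of 0.06. In MRL day 5 infarct replicate 3 it was -0.66 against a group minimum of -2.51, and in C57 day 5 infarct replicate 1, a further array that stood apart, it was -0.72 against -2.23. Counts that rest on these arrays are given with and without them, and MRL replicate 3 below means the library so labelled.

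By day 5 after infarction the programme was lower in infarct tissue of both strains. In C57, 25 of the 32 genes fell from day 0 and 2 rose, and the median change was -1.75, beside -0.00 over all 12834 probe sets tested, of which 19.3% fell and 23.4% rose. In MRL, 28 fell and 2 rose, with a median change of -1.96 beside -0.05 over all, of which 23.4% fell and 23.6% rose. All 25 genes that fell in C57 were among the 28 that fell in MRL. The risers were the same in both strains, Angptl4 and Cpt1a. Slc27a1, Pdk4 and Ucp3 fell by the test in MRL alone, and Fabp4 and Acot1 were called in neither strain. Without the 3 libraries that stood apart, 27 fell in C57 and 28 in MRL, with medians of -2.06 and -2.31. Without the library labelled MRL day 5 infarct replicate 3, and that labelled C57 day 5 noninfarct replicate 3, every MRL call in infarct tissue held. There the MRL changes were -2.11 for Fabp3, -1.62 for Lpl, -3.40 for Etfdh, -3.80 for Eci1, -5.13 for Ppargc1a, -2.53 for Ucp3, -3.25 for Pdk4 and 1.51 for Cpt1a. Quantile normalization moved the median over all probe sets to -0.14 in C57 and -0.13 in MRL, and turned the C57 split over all probe sets from 2475 lower and 3005 higher to 3268 lower and 2639 higher, while the members called stayed at 25 and 28 lower and 2 higher. The log2 changes of all 32 genes are drawn as a colour map by strain, region and day.

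**Figure D1:**
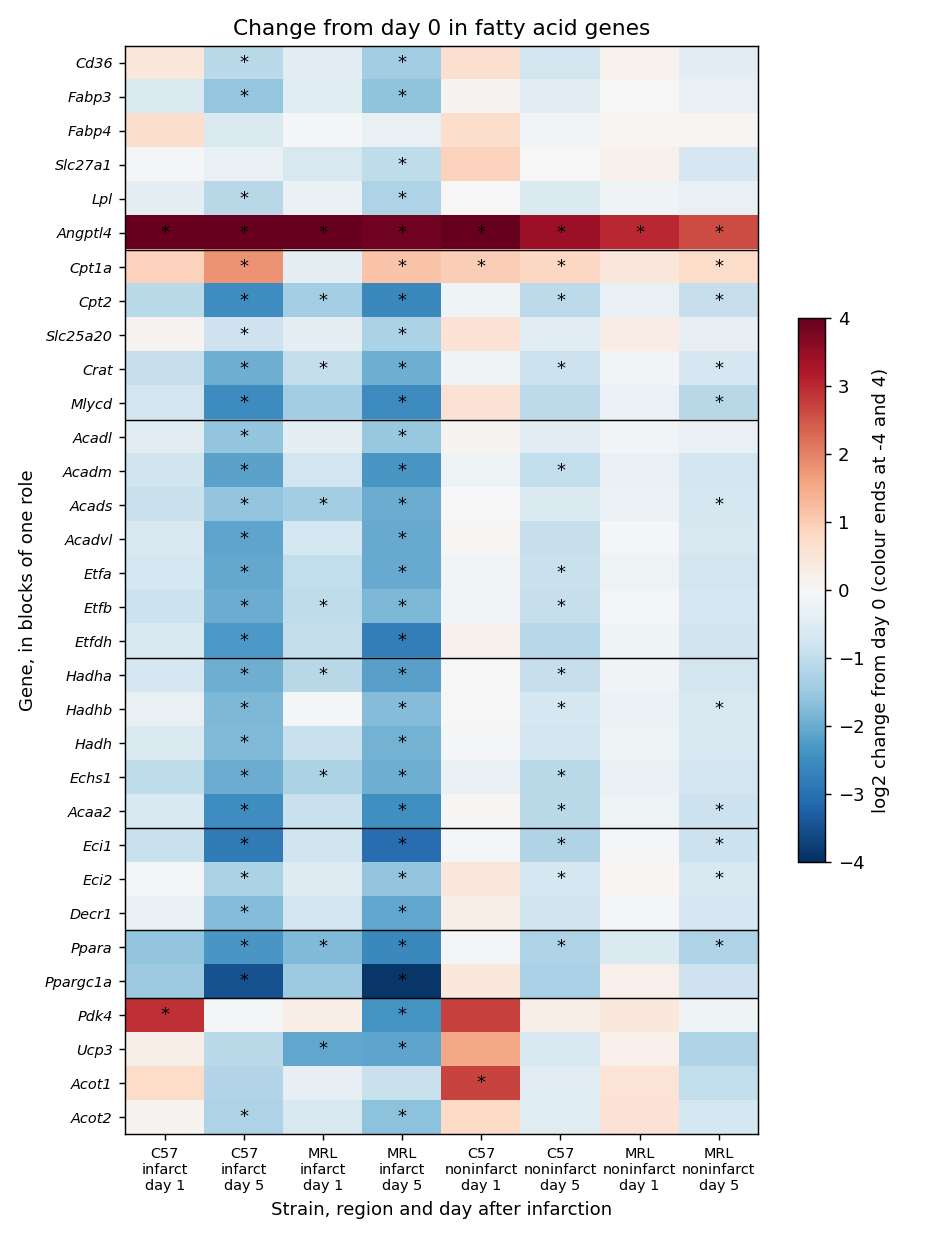
Log2 change from day 0 of 32 fatty acid genes (rows, in blocks of one role: uptake, carnitine shuttle, acyl-CoA dehydrogenases and electron transfer, hydratase to thiolase, auxiliary enzymes, transcriptional control, fuel choice and thioesterases) in 8 combinations of strain, region and day (columns). Red is higher, blue is lower, colours end at -4 and 4, and a star marks a limma adjusted p under 0.05; the infarct day 5 columns are blue in nearly every row except Angptl4 and Cpt1a.

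Uptake genes split. Fabp3, which encodes the main fatty acid binding protein of heart muscle, was 14.34, 14.38 and 14.37 in the 3 C57 infarct arrays on day 0 and 13.84, 12.13, 12.88 and 12.45 on day 5. The groups did not overlap, and the change was -1.54 ± 0.42 (adjusted p = 0.0064). In MRL it fell by 1.61 on the log2 scale (SE 0.39, adjusted p = 0.0023), although replicate 3 stayed at 14.31, just under the lowest day 0 value of 14.33. Cd36, the membrane fatty acid translocase, fell in both strains, by 1.08 (SE 0.42, adjusted p = 0.045) in C57 and by 1.38 (SE 0.39, adjusted p = 0.0066) in MRL. In C57 its day 5 arrays, 12.1, 10.59, 11.34 and 11.04, overlapped the day 0 values of 12.05 to 12.87, and of 7 fits that each left out 1 array the call held only without day 5 replicate 1 (adjusted p up to 0.19). A dimmer Cd36 probe set fell further, by 2.53 in C57 and by 3.06 in MRL (adjusted p = 0.0043 and 0.00045), while the remaining one fell by 1.07 in C57 and was not called there (adjusted p = 0.068).

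Lpl, the lipoprotein lipase gene, went from 14.71, 14.41 and 14.55 to 14.23, 13.11, 13.28 and 13.15 in C57 infarct tissue. All day 5 values lay below all day 0 values, with a change of -1.11 ± 0.33 (adjusted p = 0.01). In MRL the change was -1.22 ± 0.30 (adjusted p = 0.0026), with replicate 3 at 14.36 inside the day 0 range of 14.24 to 14.48. A dimmer Lpl probe set fell further in both strains, from 13.97, 13.7 and 13.7 to 13.04, 10.93, 11.94 and 11.54 in C57. In MRL that probe set went from 13.89, 13.93, 13.88 and 13.86 to 11.65, 10.97, 13.6 and 11.62. Slc27a1, a fatty acid transport protein gene, fell in MRL (-1.02 ± 0.28, adjusted p = 0.0049) and was -0.29 ± 0.30 in C57 (adjusted p = 0.45). The difference between these strain responses was itself -0.73 ± 0.41 and was not called (adjusted p = 1.0). Fabp4, a binding protein gene of adipocytes, macrophages and capillary endothelium, showed -0.59 ± 0.25 in C57 and -0.29 ± 0.23 in MRL (adjusted p = 0.063 and 0.31).

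Angptl4 moved the other way and further than any other member that rose. It encodes a secreted inhibitor of lipoprotein lipase and is a known PPAR and hypoxia target. In C57 infarct tissue it was 3.38, 3.23 and 3.62 on day 0, then 8.45, 9.48, 9.73 and 10.35 on day 1 and 7.41, 7.76, 7.47 and 8.29 on day 5. No later array came near the day 0 arrays, and the change was 6.09 ± 0.65 on day 1 (at least 36.5-fold, adjusted p = 2.5e-06) and 4.32 ± 0.65 on day 5 (at least 10.7-fold, adjusted p = 4.8e-05). In MRL it rose from 4.08, 3.34, 3.58 and 5.81 to 7.73, 8.65, 10.19 and 9.25 on day 1 and to 8.47, 9.15, 6.14 and 8.66 on day 5. The MRL changes were 4.75 ± 0.61 and 3.90 ± 0.61 (adjusted p = 2e-05 and 4.7e-05). Day 0 signal in C57 lay below the array medians of 4.22 to 4.49, so the folds are lower bounds, taken against the higher of each day 0 array's median and its own value. In MRL the day 0 readings of 4.08, 3.34 and 3.58 in infarct tissue and of 3.22 and 3.9 in noninfarct tissue also lay below these medians. The sizes of the MRL changes are therefore less certain too. Day 1 and day 5 are both set against the same day 0 arrays in every strain and region. These Angptl4 values rest on its brighter probe set. The dimmer one lay above the array median in only 3 arrays and did not pass the filter in either region. In C57 infarct tissue it read 3.72, 3.4 and 3.4 on day 0 and 7.44, 3.6, 3.61 and 3.69 on day 1. On day 5 it read 3.32, 3.19, 3.33 and 3.19.

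The carnitine shuttle also split. CPT1 loads acyl groups onto carnitine at the outer mitochondrial membrane and is inhibited by malonyl-CoA, Slc25a20 encodes the translocase, and Cpt2 returns them to coenzyme A inside. Cpt2 was 10.61, 11.17 and 10.96 on day 0 and 9.74, 7.52, 8.37 and 8.08 on day 5 in C57 infarct tissue. The groups were apart, with -2.49 ± 0.52 (5.6-fold lower, adjusted p = 0.00099), and the MRL change was -2.59 ± 0.48 (adjusted p = 0.00027). Slc25a20 fell by 0.82 in C57 (SE 0.31, adjusted p = 0.037), from 9.49 to 10.17 on day 0 to 8.89 to 9.61 on day 5, so the ranges met. Of 7 fits that each left out 1 array, its call held only without replicate 1 of day 0 or of day 5 (adjusted p up to 0.13). In MRL it fell by 1.26 (SE 0.28, adjusted p = 0.0013). A dimmer Slc25a20 probe set fell further in both strains. It went from 8.38, 8.83 and 8.8 to 7.65, 5.64, 7.1 and 6.31 in C57, with no overlap. In MRL it went from 8.88, 8.85, 8.87 and 9.07 to 6.16, 5.38, 8.2 and 5.3. Crat, a carnitine acetyltransferase that buffers acetyl-CoA, changed by -1.95 ± 0.35 and -1.96 ± 0.32 (adjusted p = 0.00025 and 8e-05). Mlycd, whose product degrades malonyl-CoA, changed by -2.53 ± 0.68 and -2.55 ± 0.63 (adjusted p = 0.0055 and 0.0024), from 6.45, 7.37 and 7.62 to 6.2, 4.75, 4.38 and 3.13 in C57. The last of these lay below the array medians of 4.22 to 4.49.

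Cpt1a, the CPT1 form that predominates in liver and many non-muscle cells, rose instead. C57 infarct arrays read 5.72, 6.28 and 6.44 on day 0 and 7.49, 8.03, 8.19 and 8.04 on day 5, with no overlap. The change was 1.79 ± 0.39 (3.46-fold, adjusted p = 0.0012). In MRL it was 1.13 ± 0.36 (adjusted p = 0.014), from 7.1, 6.99, 6.3 and 7.07 to 8.49, 8.13, 6.86 and 8.49, with replicate 3 inside the day 0 range. Leaving out MRL day 5 replicate 1, day 5 replicate 4 or day 0 replicate 3 ended the MRL call (adjusted p up to 0.053). The rise rested on 1 of 3 Cpt1a probe sets: the other two changed by 0.54 and 0.00 in C57 and by 0.23 and -0.08 in MRL, and none of these 4 values was called. Averaging the 3 probe sets ended the MRL call (adjusted p = 0.09).

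The bases before the Cpt1a start site are shown for the riser within the shuttle. They lie at chr19:3323051-3323300 on the plus strand of GRCm38.p6 and come from RefSeq. They are read 5′ to 3′, with capitals on the reverse complement of AGGTCA, the half-site letters to which nuclear receptors such as PPARα bind in repeats.
Cpt1a: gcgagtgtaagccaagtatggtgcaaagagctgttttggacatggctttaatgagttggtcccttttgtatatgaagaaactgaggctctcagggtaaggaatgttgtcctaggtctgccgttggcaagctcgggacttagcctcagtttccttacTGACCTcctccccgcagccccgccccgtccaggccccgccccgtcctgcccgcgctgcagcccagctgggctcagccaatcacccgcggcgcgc
The capitals start 94 bases before the start site. Promoter windows of 250 bases before to 50 after the start were at hand for 27 of the 34 genes, as 30 windows. AGGTCA on either strand occurred in 6 of the 30 (20%), beside 16.3% of 32851 windows of all genes. The longer TNAAGGTCA, which contains it and is read by estrogen-related receptors, was in 0 of 30 and in 1.28% of all, and the direct repeat of the half-site with a single base between in 0 of 30 and in 0.381%. These are matches of letters and do not show binding.

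All 7 genes of the acyl-CoA dehydrogenase and electron transfer group fell in both strains, with a median change of -2.05 in C57. Acadm, the medium-chain dehydrogenase, was 12.87, 12.57 and 12.86 on day 0 and 11.87, 9.95, 10.45 and 10.23 on day 5 in C57 infarct tissue. Its groups did not overlap (-2.14 ± 0.46, adjusted p = 0.0011), nor in MRL (-2.33 ± 0.42, adjusted p = 0.00021), where replicate 3 was 12.15 and the others 10.01 to 10.49. Acadvl, the very-long-chain enzyme of the inner membrane, changed by -2.12 ± 0.43 in C57 (adjusted p = 0.00079) and fell in MRL too (adjusted p = 0.00048). Its C57 arrays went from 12.63, 12.76 and 12.49 to 11.79, 10.05, 10.25 and 9.95. Acadl, the long-chain enzyme, changed least with Acads, the short-chain one, in C57: by -1.57 ± 0.33 and -1.59 ± 0.36 (adjusted p = 0.001 and 0.0016). Acadl arrays read 13.18, 13.24 and 13.31 on day 0 and 12.35, 11.04, 11.84 and 11.47 on day 5.

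Etfa and Etfb encode the subunits of electron transfer flavoprotein, and Etfdh the oxidoreductase that hands its electrons to ubiquinone. Etfdh fell most in this group, from 11.45, 11.54 and 11.52 to 10.66, 8.18, 9.03 and 8.91 in C57 (-2.31 ± 0.54, adjusted p = 0.0023). In MRL it went from 11.81, 11.79, 11.73 and 12.05 to 8.3, 8.37, 10.92 and 8.68 (-2.78 ± 0.50, adjusted p = 0.0002). Both day 5 groups lay wholly below day 0, and in each a single array, C57 replicate 1 and MRL replicate 3, was far above the rest. Etfa and Etfb changed by -2.05 ± 0.43 and -1.97 ± 0.37 in C57 (adjusted p = 0.001 and 0.00045). The Acadvl bases at chr11:70015429-70015678, minus strand of GRCm38.p6 from RefSeq, are shown as a dehydrogenase promoter that holds the half-site, in capitals, 87 bases before the start.
Acadvl: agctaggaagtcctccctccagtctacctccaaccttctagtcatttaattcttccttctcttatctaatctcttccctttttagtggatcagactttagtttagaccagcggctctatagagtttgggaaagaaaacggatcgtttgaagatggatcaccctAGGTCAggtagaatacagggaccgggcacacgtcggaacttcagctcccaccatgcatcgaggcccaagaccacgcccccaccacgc

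The 5 genes from hydratase to thiolase all fell in both strains, with a median change of -1.95 in each. Hadha and Hadhb encode the subunits of the mitochondrial trifunctional protein, which carries out the last 3 steps on long chains. Hadha was 12.03, 12.35 and 12.37 on day 0 and 11.25, 9.86, 10.27 and 9.82 on day 5 in C57, a change of -1.95 ± 0.43 (adjusted p = 0.0014), and changed by -2.18 ± 0.40 in MRL (adjusted p = 0.00021). Hadhb was 13.26, 13.02 and 12.71 on day 0 and 12.01, 10.67, 11.37 and 10.8 on day 5, a change of -1.78 ± 0.31 (adjusted p = 0.0002), and changed by -1.73 ± 0.29 in MRL (adjusted p = 9.4e-05). For both genes every day 5 array lay below every day 0 array in both strains. Acaa2, the thiolase, changed by -2.48 ± 0.43 and -2.45 ± 0.40 (adjusted p = 0.00022 and 8.2e-05). Hadh, a 3-hydroxyacyl-CoA dehydrogenase, and Echs1, the short-chain hydratase, changed by -1.77 ± 0.42 and -1.99 ± 0.44 in C57 (adjusted p = 0.0023 and 0.0016).

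Hadha and Hadhb lie head to head on chromosome 5, with start sites 273 bases apart, so that their promoter windows share 228 bases. The 250 bases before Hadhb, all of them between the start sites, are shown because these subunits fell together. They lie at chr5:30155003-30155252 on the plus strand of GRCm38.p6, from RefSeq, and hold none of the 3 motifs searched.
Hadhb: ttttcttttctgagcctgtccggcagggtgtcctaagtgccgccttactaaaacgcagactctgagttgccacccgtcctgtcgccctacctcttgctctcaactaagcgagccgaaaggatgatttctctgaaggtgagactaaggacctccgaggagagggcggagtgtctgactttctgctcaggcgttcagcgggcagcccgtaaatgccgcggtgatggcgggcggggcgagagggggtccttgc

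Auxiliary enzymes prepare unsaturated chains for the cycle. Eci1, an enoyl-CoA isomerase, had the largest fall of any enzyme gene among the 32 in both strains, by each gene's brightest probe set. C57 infarct arrays went from 11.49, 11.8 and 11.79 to 10.64, 7.67, 8.71 and 8.43 (-2.83 ± 0.62, 7.12-fold lower, adjusted p = 0.0014). MRL arrays went from 12.04, 11.95, 11.96 and 12.27 to 8.16, 8.1, 11.22 and 8.51 (-3.06 ± 0.58, 8.33-fold lower, adjusted p = 0.00031). Day 5 lay wholly below day 0 in both strains. Eci2, a second isomerase, changed by -1.27 ± 0.34 and -1.56 ± 0.31 (adjusted p = 0.0053 and 0.00051). Decr1, the dienoyl-CoA reductase, changed by -1.73 ± 0.38 and -2.08 ± 0.35 (adjusted p = 0.0014 and 0.00011). A dimmer probe set of Decr1 and another of Acaa2 fell further than Eci1 in both strains. In C57 that of Decr1 went from 9.02, 8.91 and 9.68 to 8.05, 5.24, 5.99 and 5.54. That of Acaa2 went from 10.88, 11.55 and 11.24 to 9.11, 6.23, 8.29 and 7.78.

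Both transcriptional regulators fell. Ppargc1a was 8.4, 9.15 and 9.81 on day 0 and 8.25, 3.8, 6.36 and 4.14 on day 5 in C57, and 8.79, 8.62, 9.44 and 9.63 against 3.98, 3.08, 8.97 and 4.89 in MRL. Its change was the lowest of all 32 genes, -3.48 ± 1.15 in C57 (adjusted p = 0.019) and -3.89 ± 1.06 in MRL (adjusted p = 0.0052). MRL replicate 3 lay inside the day 0 range. The C57 call was lost without day 0 replicate 2 or 3 or day 5 replicate 2 or 4 (adjusted p up to 0.071), while the other four Ppargc1a probe sets fell in both strains. Ppara went from 6.3, 6.69 and 7.41 to 5.64, 3.62, 4.61 and 4.06 in C57 (-2.32 ± 0.60, adjusted p = 0.0045) and changed by -2.58 ± 0.56 in MRL (adjusted p = 0.00093). Its groups did not overlap in either strain. In both strains some day 5 readings of both genes lay below the array medians of 4.22 to 4.49. In C57 these were 3.8 and 4.14 for Ppargc1a and 3.62 and 4.06 for Ppara. The sizes of these falls are therefore less certain.

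Pdk4, Ucp3, Acot1 and Acot2 are classic PPARα targets. Pdk4 blocks pyruvate dehydrogenase and so spares glucose, Ucp3 is an inner membrane carrier, and the thioesterases Acot1 (cytosolic) and Acot2 (mitochondrial) release free fatty acids from acyl-CoA. On day 5, Acot2 fell in infarct tissue by 1.24 in C57 (SE 0.47, adjusted p = 0.039), from 4.72 to 5.22 on day 0 to 4.81, 3.14, 3.3 and 3.54. Of 7 fits that each left out 1 C57 array, its call held only without day 5 replicate 1 (adjusted p up to 0.12). In MRL it fell by 1.64 (SE 0.43, adjusted p = 0.0042). Ucp3 fell by 2.11 in MRL (SE 0.62, adjusted p = 0.0084), from 6.49, 5.94, 5.41 and 7.61 to 3.78, 3.9, 5.51 and 3.82, with replicate 3 inside the day 0 range. It changed by -1.09 ± 0.67 in C57 (adjusted p = 0.19). Acot1 and Acot2 are near relatives, and many of their readings lie near the array medians. A brighter probe set that matches both was not used.

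Pdk4 on day 5 was 11.86, 8.78, 10.12 and 8.97 in C57 infarct tissue, against 8.45 to 11.31 on day 0; replicate 1 lay above that range and the others inside it (change -0.07 ± 0.86, adjusted p = 0.96). In MRL it was 7.86, 8.29, 11.83 and 9.01 against 10.82, 11.83, 11.77 and 12.11 on day 0, a change of -2.39 ± 0.80 (adjusted p = 0.018) that was lost without day 5 replicate 1 or 2 (adjusted p up to 0.075). The strains' day 5 responses differed by -2.32 ± 1.17, which was not called (adjusted p = 1.0).

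On day 1 after infarction few of the 32 genes were called in C57. In infarct tissue 2 rose, Angptl4 and Pdk4, and 0 fell, with 5 falling at an unadjusted p under 0.05. Over all probe sets, 9.39% rose and 6.16% fell, so the share of members that rose, 6.25%, was below that of all probe sets. The median of the 32 genes was -0.58 beside 0.02 over all, and -0.32 without day 1 replicate 3. Without day 1 replicate 2, 2 fell. In 1 fit of all 46 arrays 4 rose and 3 fell, and with no filter 1 rose. Pdk4 was 8.45, 10.24 and 11.31 on day 0 and 13.61, 13.51, 11.77 and 12.78 on day 1. The groups were apart, with a change of 2.92 ± 0.86 (7.54-fold, adjusted p = 0.025). The call was lost without replicate 1 or 2 of either day (adjusted p up to 0.15). In MRL Pdk4 was 11.26, 10.84, 12.94 and 12.62 on day 1, across the day 0 range, with 0.28 ± 0.80 (adjusted p = 0.83). The difference between the strains' responses was -2.63 ± 1.17 and was not called (adjusted p = 1.0).

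In MRL infarct tissue on day 1, Angptl4 rose and 8 genes fell: Cpt2, Crat, Acads, Etfb, Hadha, Echs1, Ppara and Ucp3. Over all probe sets 11.1% fell and 10.4% rose, and the median of the 32 genes was -0.73 beside -0.00. Acads had the lowest adjusted p of these, going from 9.16, 9.24, 9.27 and 9.62 to 8.42, 7.27, 8.2 and 7.84 (-1.39 ± 0.33, adjusted p = 0.0061), and it held in all 8 fits that each left out 1 array. Ucp3 changed most, by -2.08 ± 0.62 (adjusted p = 0.022), from 5.41 to 7.61 on day 0 to 4.93, 3.57, 4.29 and 4.36. Ppara changed by -1.75 ± 0.56 (adjusted p = 0.031), and in C57 by -1.58 ± 0.60 without a call (adjusted p = 0.078). Leaving out single arrays took the count of 8 to between 1 and 8, and with no filter it was 2. Day 0 replicates 1, 2, 3 and 4 and day 1 replicates 2 and 4 each took it below 4.

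**Figure D2:**
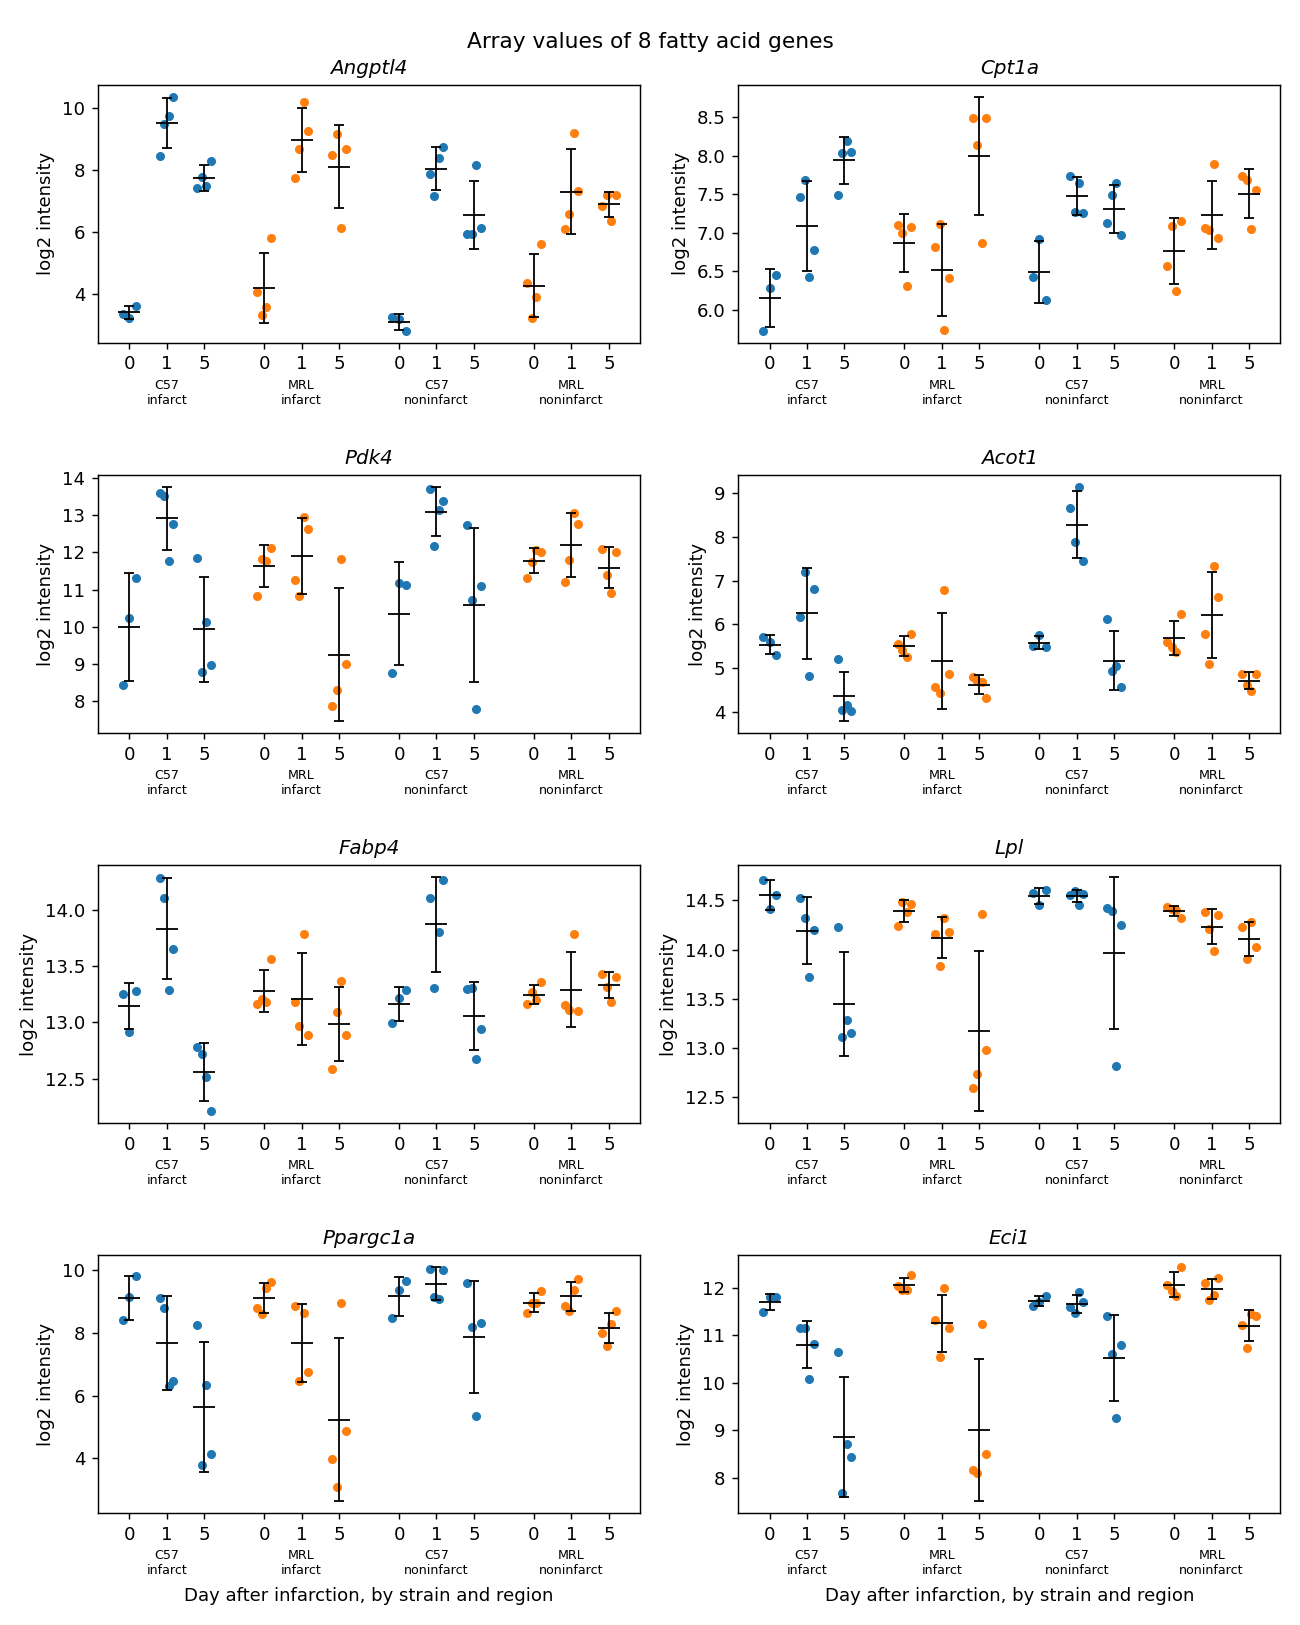
Log2 intensity of 8 fatty acid genes in each of 46 arrays (points), by day after infarction within each strain and region; blue is C57, orange is MRL, and bars give the group mean ± SD of 3 or 4 arrays. Angptl4 lies above day 0 in every later array, Acot1 peaks in C57 noninfarct tissue on day 1, and Ppargc1a and Eci1 spread over several log2 units on day 5 in infarct tissue.

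Noninfarct tissue showed the day 1 rise without a fall. In C57, Angptl4, Cpt1a and Acot1 rose and 0 genes fell, also at an unadjusted p under 0.05, where 9 rose. Over all probe sets 2.71% rose and 1.27% fell, and the median of the 32 genes was 0.11 beside -0.01. Acot1 was 5.5, 5.75 and 5.49 on day 0 and 8.65, 7.88, 9.14 and 7.44 on day 1. It rose by 2.70 ± 0.44 (6.49-fold, adjusted p = 0.0015) and the call held in all 7 fits that each left out 1 array. Angptl4 rose by 4.93 ± 0.64 (at least 13.2-fold by the same bound, adjusted p = 0.00016), from 3.28, 3.21 and 2.81 to 7.87, 7.15, 8.37 and 8.74. Cpt1a rose by 0.99 ± 0.27 (adjusted p = 0.042), a call that was lost in 5 of 7 such fits (without day 0 replicate 1 or 3 or day 1 replicate 1, 3 or 4) and in its other probe sets. Pdk4 changed by 2.75 ± 0.78 with groups apart and was just outside the threshold (adjusted p = 0.052). A probe set of Fabp4 rose by 1.41 (SE 0.39, adjusted p = 0.044), while its brightest probe set changed by 0.71 ± 0.21 (adjusted p = 0.058).

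In MRL noninfarct tissue on day 1, Angptl4 alone rose and 0 genes fell, also at an unadjusted p under 0.05, beside 0.786% of all probe sets that rose and 0.194% that fell. It went from 4.36, 3.22, 3.9 and 5.6 to 6.11, 6.57, 9.19 and 7.31 (3.02 ± 0.59, adjusted p = 0.014). The call was lost without day 0 replicate 2 or day 1 replicate 3 (adjusted p up to 0.058). Acot1 was 5.78, 5.09, 7.34 and 6.62, over a day 0 range of 5.37 to 6.24 (0.53 ± 0.41, adjusted p = 0.67). The direct comparison of strains on day 1 in noninfarct tissue placed Acot1 lower in MRL, by 2.07 on the log2 scale (SE 0.41, 4.2-fold, adjusted p = 0.0055), and no MRL array reached the lowest C57 array. That call held in all 8 fits that each left out 1 array. The strains' changes from day 0 differed by -2.17 ± 0.60, which was not called (adjusted p = 0.89).

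The 250 bases before Acot1 and Acot2 are shown because these neighbouring paralogs changed by different amounts on day 1 in C57 noninfarct tissue. There Acot2 changed by 0.80 ± 0.38 (adjusted p = 0.27). In MRL noninfarct tissue neither gene was called on day 1. The genes lie on the plus strand of chromosome 12, at chr12:84009252-84009501 and chr12:83987611-83987860 in GRCm38.p6, from RefSeq. Their starts are 21641 bases apart, and their windows, when aligned, were 50.3% identical with gaps and 24.7% without. Neither window holds any of the 3 motifs.
Acot1: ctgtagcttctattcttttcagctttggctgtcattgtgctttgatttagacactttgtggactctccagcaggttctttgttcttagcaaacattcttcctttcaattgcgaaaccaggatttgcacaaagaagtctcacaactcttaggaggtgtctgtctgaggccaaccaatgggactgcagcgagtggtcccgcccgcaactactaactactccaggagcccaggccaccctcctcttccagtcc
Acot2: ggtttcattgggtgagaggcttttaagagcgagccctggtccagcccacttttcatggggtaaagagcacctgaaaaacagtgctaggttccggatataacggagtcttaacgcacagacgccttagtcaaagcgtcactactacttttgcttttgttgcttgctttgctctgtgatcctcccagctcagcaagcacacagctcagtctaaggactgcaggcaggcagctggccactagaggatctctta

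In noninfarct tissue on day 5 falls were called in both strains, but they depended on the fit and on single arrays. In C57, 12 genes fell and 2 rose (Angptl4 and Cpt1a), beside 9.45% and 11.6% of all probe sets, and the median change was -0.75 beside -0.05. The falls were Cpt2, Crat, Acadm, Etfa, Etfb, Hadha, Hadhb, Echs1, Acaa2, Eci1, Eci2 and Ppara, with the largest in Ppara (-1.24 ± 0.40, adjusted p = 0.035) and Eci1 (-1.20 ± 0.32, adjusted p = 0.014). Eci1 arrays were 11.4, 10.61, 9.25 and 10.8 against 11.61 to 11.82 on day 0. Crat, with -0.85 ± 0.19 (adjusted p = 0.0054), kept its call in all 7 fits that each left out 1 array. Without the 2 libraries that went against their labels 4 falls were left, Crat, Echs1, Acaa2 and Eci1, with a median of -0.39, and the Cpt1a rise lost its call (adjusted p = 0.11). The count of falls was 3 with no filter and 1 in 1 fit of all 46 arrays. It was 3, 2 and 1 without day 0 replicates 1, 2 and 3, and 24 and 4 without day 5 replicates 1 and 3.

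In MRL noninfarct tissue 9 genes fell and 2 rose (Angptl4 and Cpt1a), beside 8.17% and 16% of all probe sets, and the median change was -0.69 beside -0.04. The falls were Cpt2, Crat, Mlycd, Acads, Hadhb, Acaa2, Eci1, Eci2 and Ppara. Ppara was lowest, from 6.71, 7.65, 7.36 and 7.37 to 6.23, 5.72, 6.37 and 5.8 (-1.24 ± 0.37, adjusted p = 0.021). For 24 of the 32 genes every day 5 array lay below every day 0 array, beside 22.5% of all probe sets. Angptl4 remained up, by 2.62 ± 0.59 (adjusted p = 0.0034), and in C57 by 3.44 ± 0.64 (adjusted p = 0.0018). The count of 9 was 0 in 1 fit of all 46 arrays, which ended every fall, 2 with no filter and 1 to 6 when single arrays were left out. It was 2 and 1 without day 0 and day 5 replicate 2, 3 without day 0 replicate 1 or 4, 4 without day 5 replicate 3, and 5 without day 5 replicate 1 or 4.

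From day 1 to day 5, which shares no day 0 array, 23 genes fell in C57 infarct tissue and 23 in C57 noninfarct tissue, beside 15.7% and 10.5% of all probe sets, and 0 rose, beside 18.5% and 11.9% (1 and 0 at an unadjusted p under 0.05 by limma). Medians were -1.33 and -0.97, beside -0.03 and -0.06 over all; without noninfarct day 5 replicate 3 the noninfarct median was -0.61. Pdk4 fell by 2.98 in infarct and by 2.51 in noninfarct tissue (SE 0.80 and 0.73, adjusted p = 0.0077 and 0.018), and Acot1 fell by 1.90 and by 3.11 (SE 0.46 and 0.41, adjusted p = 0.0036 and 4.1e-05). Fabp4 fell by 1.28 and by 0.82 (SE 0.23 and 0.19, adjusted p = 0.00035 and 0.0052). Its C57 infarct arrays were 14.29, 14.11, 13.29 and 13.65 on day 1 and 12.78, 12.72, 12.51 and 12.21 on day 5, with no overlap. Angptl4 fell by 1.77 in infarct tissue (SE 0.61, adjusted p = 0.029), a call lost in 6 of 8 fits that each left out 1 array, held only without replicate 1 of day 1 or replicate 4 of day 5. The C57 infarct count was 15 and 14 without day 1 replicates 1 and 2, and 10 and 15 without day 5 replicates 2 and 4. The C57 noninfarct count was 12, 15 and 15 without day 1 replicates 1, 3 and 4, and 13 without day 5 replicate 3.

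In MRL, 15 genes fell from day 1 to day 5 in infarct tissue and 1 rose, Cpt1a, beside 13.8% and 16.3% of all probe sets. Cpt1a went from 6.81, 7.11, 5.74 and 6.4 to 8.49, 8.13, 6.86 and 8.49 (1.48 ± 0.36, adjusted p = 0.0049). The count of falls was 25 without day 5 replicate 3, 7 without day 5 replicate 1 or 2, and 8 without day 5 replicate 4 or day 1 replicate 3. The median change was -1.02, beside -0.04 over all. In noninfarct tissue 0 rose, also at an unadjusted p under 0.05, beside 9.48% of all, and 5 fell, beside 2.5%: Slc27a1, Crat, Eci2, Acot1 and Acot2. Acot1 changed by -1.50 ± 0.41 and Acot2 by -1.29 ± 0.35 (adjusted p = 0.02 for each). That count was 0 without day 5 replicate 2 or day 1 replicate 3 or 4, 1 without day 5 replicate 3, 2 without day 5 replicate 1 or 4, and 3 without day 1 replicate 1. The median was -0.60, beside -0.04 over all.

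No fatty acid gene was called different between the regions on day 0. In C57 0 of the 32 genes and 0% of all probe sets were called, and in MRL 0 genes and 0.0305% of probe sets, with 0 genes at an unadjusted p under 0.05 in either strain by limma. On day 5 infarct tissue was lower in 14 genes in C57 and 23 in MRL, beside 3.48% and 9.54% of all probe sets, and higher in 0, beside 5.06% and 4.48%, with medians of -1.02 and -1.26. In MRL, Ppargc1a (-2.92 ± 0.89, adjusted p = 0.025), Pdk4 (-2.35 ± 0.79, adjusted p = 0.043) and Eci1 (-2.20 ± 0.48, adjusted p = 0.0052) differed most. In C57 Eci1 differed by -1.65 ± 0.48 (adjusted p = 0.032). Without the libraries that went against their labels, 26 were lower in each strain, with 1 higher in C57 and 2 in MRL. The C57 count rested on few arrays: it was 26 without noninfarct replicate 3, 23 without infarct replicate 1, and 0 to 2 without any 1 of the other 6 arrays. The MRL count was 9, 3 and 12 without infarct replicates 1, 2 and 4. On day 1, Slc27a1 and Acot1 were lower in C57 infarct tissue and Acads and Acot2 in MRL infarct tissue, beside 3.38% and 4.84% of all probe sets that were lower and 3.93% and 4.44% that were higher. The C57 Acot1 difference was the largest, -2.02 ± 0.45 (adjusted p = 0.0049). The C57 day 1 count was 8 and 0 without infarct replicates 2 and 3 and 1 without noninfarct replicate 1 or 3. The MRL day 1 count was 0 and 5 without infarct replicates 2 and 3, and 1 without infarct replicate 4 or noninfarct replicate 1, 3 or 4. On MRL day 1 same-numbered arrays of the regions deviated together, though the labels do not say that they share a heart. With the replicate number as a block, 7 genes were lower and 1 higher in MRL infarct tissue on day 1.

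Few strain differences were called. In infarct tissue MRL and C57 differed in 0 of the 32 genes on day 0, day 1 and day 5, beside 1.07%, 0.997% and 0.686% of all probe sets. The counts at an unadjusted p under 0.05 were 1, 3 and 0 by limma. In noninfarct tissue 0 genes differed on day 0 and day 5, beside 1.8% and 1.25% of all, with 1 and 3 at an unadjusted p under 0.05. The day 5 median was 0.32 in noninfarct and 0.10 in infarct tissue, and -0.03 and -0.26 without the libraries that went against their labels. On day 1 Acot1 was the only one called, beside 2.77% of all. Tests of the strains' responses to infarction gave 0 calls among the 32 in either region on day 1 or day 5, with 0.0468% and 0.156% of all probe sets called in infarct tissue and 0.0081% on each day in noninfarct tissue. At an unadjusted p under 0.05 there were 4 on day 1 in each region and 0 on day 5.

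On day 0, some oxidation genes read slightly higher in MRL, without a call. Others did not: Echs1 in noninfarct tissue was 11.72, 11.86 and 11.79 in C57 and 11.62, 11.55, 11.67 and 11.67 in MRL. Every MRL array lay above every C57 array for 12 genes in infarct tissue and 11 in noninfarct tissue, beside 9.51% and 7.16% of all probe sets. For 9 genes this held in both regions, beside 3.85%: Crat, Acadl, Acadm, Acads, Etfdh, Hadha, Eci1, Eci2 and Decr1. Crat was 10.34, 10.68 and 10.48 in C57 and 10.97, 10.96, 10.79 and 10.97 in MRL infarct tissue. Acadm was 12.87, 12.57 and 12.86 in C57 and 13.02, 12.98, 13.02 and 13.15 in MRL. The 9 differences ran from 0.28 to 0.47 in infarct tissue and from 0.19 to 0.47 in noninfarct tissue, and none passed the test (smallest adjusted p = 0.64).

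Cardiomyocyte markers moved with these changes. In infarct tissue on day 5, 12 of 15 cardiomyocyte markers fell in C57 and 13 in MRL, beside 19.3% and 23.4% of all probe sets, with median changes of -1.01 and -1.04. Their summed intensity ran from 321235 to 329554 on day 0 and from 135885 to 261460 on day 5 in C57, and from 301487 to 329790 and from 94900 to 294117 in MRL. In bulk tissue, fewer cardiomyocytes and less RNA per cardiomyocyte cannot be told apart. All 11 macrophage and all 9 fibroblast markers rose in both strains, with medians of 3.24 and 3.54 in C57 and 3.64 and 3.53 in MRL, and the median of 12 endothelial markers was 0.00 and 0.24. In noninfarct tissue on day 5, 3 cardiomyocyte markers fell in C57 and 1 in MRL, beside 9.45% and 8.17% of all probe sets, with medians of -0.37 and -0.21, while 10 and 11 macrophage markers and 8 fibroblast markers in each strain rose, beside 11.6% and 16%. The 3′ minus 5′ signal of Gapdh, a measure of RNA integrity, was -0.22 to -0.14 in C57 infarct tissue on day 0 and -0.08 to 0.73 on day 5; in MRL it was -0.28 to -0.18 and -0.13 to -0.00. Its part in the results was not tested. Adipocyte markers Adipoq, Cidec, Lep, Retn and Ucp1 stayed below the filter.

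The median change of the fatty acid genes lay below that of the cardiomyocyte markers in most day 5 arrays. In each array the median change of the 32 genes was set against that of the 15 markers. In C57 infarct tissue the difference was -0.96 to -0.34 over 4 arrays on day 5 and -0.19 to 0.10 over 3 arrays on day 0, and in MRL it was -1.17 to -0.60 and -0.10 to 0.11. In noninfarct tissue on day 5 it was -1.04 to 0.12 in C57 and -0.65 to -0.36 in MRL. The libraries that stood apart did so in both measures: in MRL day 5 infarct replicate 3 the markers changed by -0.06, against -1.89 for the lowest array of that group. The part of cell content in the fall of the fatty acid genes was not tested. These sets were also read at different signal levels. In C57 infarct tissue on day 0 the median level was 11.37 to 11.46 for the 32 genes and 14.28 to 14.37 for the markers. Whether signal level bears on the difference between the sets was not tested.

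**Figure D3:**
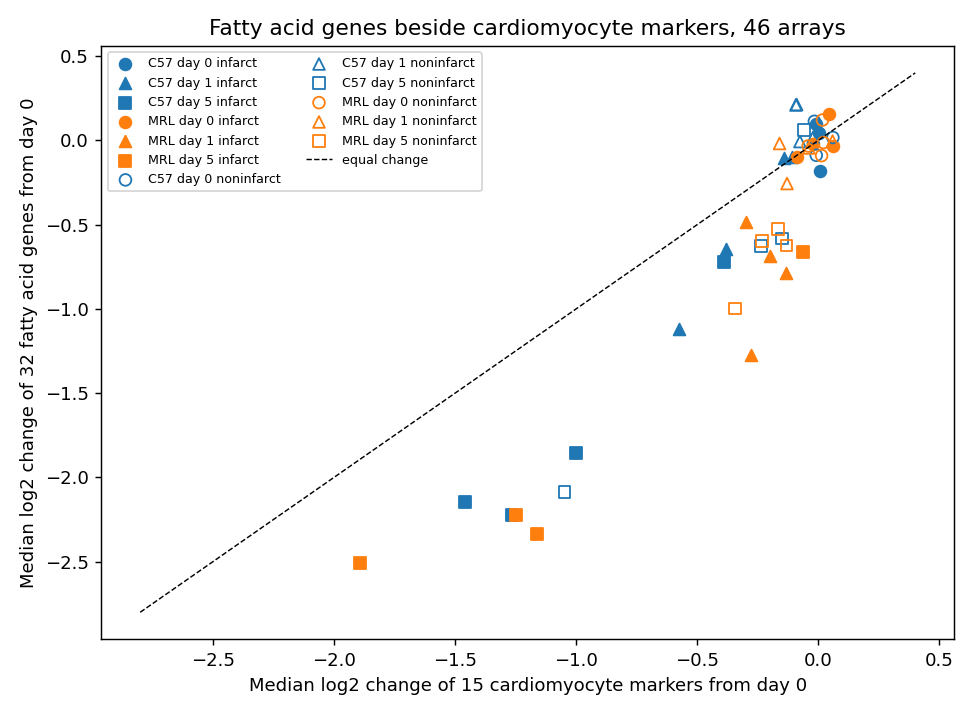
Median log2 change from day 0 of 32 fatty acid genes (vertical axis) against that of 15 cardiomyocyte markers (horizontal axis), 1 point for each of 46 arrays; colour gives strain, shape gives day, filled points are infarct tissue, and the dashed line marks equal change. Day 5 infarct arrays lie 0.34 to 1.17 below the line.

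Lists of other lipid genes were counted in infarct tissue on day 5 against day 0, where the shares of all probe sets that fell were 19.3% for C57 and 23.4% for MRL. Those that rose were 23.4% and 23.6%. Of 13 other mitochondrial acyl-CoA genes 10 fell in C57 and 11 in MRL, and Acot9, a thioesterase, rose in both (1.09 ± 0.26 and 0.78 ± 0.24). Their medians were -1.48 and -1.67. Ivd, which acts on isovaleryl-CoA from leucine (-2.83 ± 0.59 and -3.03 ± 0.54), and Ech1, a dienoyl-CoA isomerase (-2.81 ± 0.52 and -2.74 ± 0.48), were among the lowest. Of 10 peroxisomal oxidation genes 6 fell in C57 and 7 in MRL, with medians of -0.69 and -0.94. All 3 ketone body genes fell in both strains, among them Bdh1, a ketone dehydrogenase (-2.19 ± 0.57 and -2.05 ± 0.52). Of 10 other uptake and activation genes, Fabp5 (2.60 ± 0.51 and 2.80 ± 0.47) and Acsl5 (2.00 ± 0.49 and 2.28 ± 0.46) rose in both strains and Acsl4 (1.30 ± 0.33) in C57, while 4 fell in C57 and 5 in MRL.

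Among 15 genes for storing and mobilising triglyceride, C57 had 11 that fell and MRL 12, with medians of -1.29 and -1.66. Fitm1, Plin5 and Dgat2, which serve lipid droplets and triglyceride synthesis, fell most: by 3.78, 3.56 and 3.45 in C57 and by 4.10, 4.19 and 4.06 in MRL. Plin2, a lipid droplet coat protein, was the only riser (2.81 ± 0.53 and 2.58 ± 0.49). Of 13 nuclear receptor and coregulator genes 7 fell in each strain and Hif1a rose. Klf15 (-3.02 ± 0.72 and -2.97 ± 0.67) and Rxrg (-2.36 ± 0.44 and -2.56 ± 0.41) were lowest, and Esrra changed by -1.69 ± 0.35 and -1.20 ± 0.33. The 10 genes of fatty acid synthesis and malonyl-CoA were mixed, with 4 higher and 3 lower in C57, and 3 each way in MRL. Acacb, whose product makes the malonyl-CoA that inhibits CPT1, fell (-3.53 ± 0.75 and -3.28 ± 0.69), and Scd2, a desaturase, rose (2.47 ± 0.53 and 2.11 ± 0.49). In the route that feeds glucose carbon to the mitochondria, of 8 pyruvate dehydrogenase and kinase genes 7 fell in each strain and Pdk3 rose (1.46 ± 0.36 and 2.11 ± 0.34).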

How the data were processed

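Affymetrix MOE430A arrays measured RNA in 46 samples. The authors deposited linear intensities per probe set, summarised and normalized between arrays with GCRMA per the submitters' processing notes, version not given in the sources used here. Such values compress or spread low signals, so changes of dim probe sets are less certain. Here log2 was taken without a pseudocount; the design had assumed log2 values, and the table proved linear. Of 22690 probe sets, 20380 had 1 gene symbol, 691 several and 1555 none, after 64 controls were set aside. Probe sets above their array's median in at least 3 arrays of a fit were tested with limma 3.58.1 in R 4.3.3, in 1 fit per region (23 arrays each) and 1 over both regions for region comparisons, 28 comparisons in all. P-values were adjusted by Benjamini-Hochberg over all probe sets tested. A gene stands for its passing probe set with the highest mean. The labels call the arrays biological replicates, and their number limits the precision.

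The genes named are up to 8 called members with the largest fall and rise per comparison, a fixed set of uptake, shuttle, oxidation and control genes, and up to 4 called genes of each other list. Members and lists were chosen with earlier results of these data known. Acsl4 and Esrra were added after their values were seen. The fit was tested on simulated data for 12834 probe sets, with changes placed in C57 infarct tissue on day 5. Of 100 probe sets changed by log2 1, 45 were recovered, and of 100 changed by 2, 88, with 3 false calls. The simulated noise was independent for each probe set and array, so it held no arrays that stood apart as in the real data. Alternatives were no filter, quantile normalization, median centring, an offset of 32, the mean of a gene's probe sets, a replicate block, all arrays in 1 fit, and leaving out arrays. Same-numbered regions deviated together in every pair of C57 day 0 (correlations 0.23 to 0.43) and MRL day 1 (0.34 to 0.56); the labels do not say that they share a heart. Promoter sequences came from RefSeq tables of GRCm38.p6.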

Additional observations from a re-analysis of the deposited data

Results flagged for a closer look

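Each group of 4 arrays was searched for an array far from the other three. Of 330 such tests, 34 met the criterion, Dixon's test at the 95% level, which by chance marks about 5% of groups; values of one array are not independent of each other. No cause was tested.

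C57 day 1 infarct replicate 3 had Cpt2 at 8.92 against 10.05 to 10.18 and Slc25a20 at 9.54 against 10.22 to 10.24. C57 day 1 noninfarct replicate 2 had Ucp3 at 4.86 against 7.76 to 8.03. C57 day 5 infarct replicate 1 had Lpl at 14.23 against 13.11 to 13.28, Acads at 8.12 against 6.86 to 7.07, Acadvl at 11.79 against 9.95 to 10.25 and Decr1 at 10.64 against 9.20 to 9.41. The same array had Ucp3 at 5.69 against 3.87 to 4.11 and Acot1 at 5.2 against 4.03 to 4.16. C57 day 5 noninfarct replicate 3 had Fabp3 at 12.77 against 14.12 to 14.24, Lpl at 12.81 against 14.25 to 14.42 and Angptl4 at 8.16 against 5.92 to 6.14. MRL day 0 infarct replicate 4 had Fabp4 at 13.57 against 13.16 to 13.21 and Echs1 at 11.7 against 11.56 to 11.58. MRL day 0 infarct replicate 3 had Cpt1a at 6.3 against 6.99 to 7.10 and Crat at 10.79 against 10.96 to 10.97. MRL day 0 noninfarct replicate 2 had Etfa at 13.07 against 12.95 to 12.97. MRL day 1 infarct replicate 2 had Cd36 at 11.9 against 12.56 to 12.63 and Acadm at 11.85 against 12.41 to 12.53. MRL day 1 noninfarct replicate 3 had Fabp4 at 13.79 against 13.10 to 13.15 and Cpt1a at 7.89 against 6.93 to 7.06. MRL day 1 noninfarct replicate 2 had the median change of the 32 genes at -0.26 against -0.05 to 0.00. MRL day 5 infarct replicate 3 had Crat at 9.96 against 8.50 to 8.71, Acadl at 13.15 against 11.58 to 11.77, Etfb at 11.64 against 9.98 to 10.19 and Etfdh at 10.92 against 8.30 to 8.68. The same array had Acaa2 at 11.93 against 9.66 to 9.99, Eci1 at 11.22 against 8.10 to 8.51, Decr1 at 11.12 against 8.98 to 9.33 and Ucp3 at 5.51 against 3.78 to 3.90. The same array had the median change of the 32 genes at -0.66 against -2.51 to -2.22. MRL day 5 noninfarct replicate 2 had Cpt2 at 9.63 against 10.32 to 10.44 and Acads at 8.11 against 8.73 to 8.85. MRL day 5 noninfarct replicate 3 had Hadhb at 12.06 against 12.30 to 12.34.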

How the results depend on the processing

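None of the 206 called gene results reversed under any alternative, and 88 kept their call in all. Of the medians, 448 stayed within 1 SD of the array values in the first-named group and 8 moved. That SD is wide where arrays stood apart, so this is a loose measure. Without the 2 libraries that stood apart, the C57 noninfarct day 5 median went from -0.75 to -0.39. That of MRL minus C57 in infarct tissue on day 5 went from 0.10 to -0.26. Both counted as having stayed. Counts below are the fatty acid genes called. With no filter, C57 infarct day 1 had 1 higher, C57 noninfarct day 5 had 3 lower and 1 higher, MRL infarct day 1 had 2 lower, and MRL noninfarct day 5 had 2 lower and 1 higher; infarct against noninfarct had 1 lower on C57 day 1, 3 on C57 day 5 and 1 on MRL day 1. Averaging probe sets gave 1 higher for C57 noninfarct, MRL infarct and MRL noninfarct day 5, 0 higher for MRL infarct day 5 against day 1, and 2 lower for MRL against C57 in noninfarct tissue on day 1. Quantile normalization gave 1 higher for MRL noninfarct day 5 and 1 lower between regions on MRL day 1. The offset gave 0 higher for MRL noninfarct day 1 and 4 lower between regions on C57 day 1. In 1 fit of all 46 arrays, C57 infarct day 1 had 3 lower and 4 higher, C57 infarct day 5 against day 1 had 1 higher, C57 noninfarct day 5 had 1 lower and 1 higher and 12 lower against day 1, and MRL noninfarct day 5 had 0 lower and 1 higher and 2 lower against day 1. Without the 2 libraries that stood apart, or without these and C57 day 5 infarct replicate 1, a choice made after seeing the data, C57 noninfarct day 5 had 4 lower and 1 higher and 13 lower against day 1, and MRL infarct day 5 had 25 lower against day 1. Between regions on day 5 they gave 26 and 27 lower and 1 and 2 higher in C57, and 2 and 2 higher in MRL; without 3 libraries C57 infarct day 5 against day 1 had 1 higher. The cause was not tested.

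With the replicate block, 7 were lower and 1 higher between regions on C57 day 1 and on MRL day 1, 1 was higher between regions on day 5 in each strain, and 1 was higher in C57 infarct tissue on day 5 against day 1. The labels do not say that the replicate number pairs the samples. Outside C57 day 0 and MRL day 1 the values did not show such pairing throughout. Correlations ran from -0.46 to 0.15 on C57 day 1 and -0.01 to 0.77 on C57 day 5. In MRL they ran from 0.07 to 0.55 on day 0 and -0.02 to 0.47 on day 5. In that order, 0 of 4, 2 of 4, 2 of 4 and 2 of 4 samples correlated best with their own number.

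Leaving out single arrays gave these ranges. C57 infarct: day 1 had 0 to 2 lower and 1 to 3 higher, day 5 had 21 to 27 lower and 2 to 2 higher, and day 5 against day 1 had 10 to 28 lower and 0 to 1 higher. C57 noninfarct: day 1 had 0 lower and 2 to 5 higher (5 without day 1 replicate 2), day 5 had 1 to 24 lower and 1 to 2 higher, and day 5 against day 1 had 12 to 30 lower. MRL infarct: day 1 had 1 to 8 lower, day 5 had 27 to 28 lower and 1 to 2 higher, and day 5 against day 1 had 7 to 25 lower. MRL noninfarct: day 1 had 0 to 1 higher, day 5 had 1 to 6 lower and 1 to 2 higher, and day 5 against day 1 had 0 to 6 lower. Strains: infarct day 1 had 0 to 1 lower, noninfarct day 1 had 1 to 2 lower, and noninfarct day 5 had 0 to 2 higher. Between regions: C57 had 0 to 8 lower on day 1, and 0 to 26 lower and 0 to 1 higher on day 5; MRL had 0 to 5 lower and 0 to 1 higher on day 1, and 3 to 26 lower and 0 to 2 higher on day 5. Signal near background limits Acot1, Acot2, Ucp3, a dim Fabp4 probe set and day 0 Angptl4. In infarct tissue on day 5 it also limits Ppargc1a, Ppara and Mlycd.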
